A study of Mus musculus with 11 samples.

Results

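Triglyceride is built in fat cells from glycerol 3-phosphate and fatty acids, and 9 mouse genes that encode the main steps were examined here: Pck1, Aqp7, Gk, Gpd1, Gpam, Agpat2, Lpin1, Dgat1 and Dgat2. The genes were listed by symbol for their place in the pathway, with earlier results of these data known, and each was looked up in the table of 12787 genes measured in gonadal white adipose tissue (WAT). All 9 were found, 8 under the symbol given here and Gk under its older symbol Gyk. RNA sequencing had been performed on gonadal WAT of male C57Bl6/J mice fed a 60% high fat diet (HFD) for 20 weeks. The control group (HFD, n = 5 mice) received the diet with vehicle, and the IMC group (HFD + IMC, n = 6 mice) received the same diet with 0.06% w/w iodomethylcholine (IMC). IMC blocks the gut bacterial enzyme that makes trimethylamine from choline, and the comparison asked how adipose gene expression differed when this enzyme was inhibited. Both groups had the same strain and diet without a transgene, each library came from 1 mouse, and age is not given in the labels. A sixth control library was dropped by the study for failing its quality standards.

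White fat stores fatty acids as triglyceride, and esterification needs glycerol 3-phosphate. This intermediate can come from glucose by way of dihydroxyacetone phosphate, from pyruvate by glyceroneogenesis, or from phosphorylation of free glycerol, a route long regarded as minor in white fat. Acyl chains are then added in sequence, a phosphate is removed from phosphatidic acid, and a last acyl chain converts diacylglycerol to triglyceride.

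All 9 genes were higher in the gonadal WAT of IMC-treated mice, by 1.58-fold for Agpat2 at the lower end to 2.46-fold for Pck1 at the upper end. Each passed an adjusted p of 0.05 (limma, with Benjamini-Hochberg adjustment across the 12787 genes), while 20% of all genes were called higher and 21% were called lower. In 8 of the 9 genes the lowest IMC-treated mouse lay above the highest control mouse, a separation seen upward in 12.5% of all genes. Agpat2 was the exception. The median log2 fold change was 0.89 over the 9 genes and -0.03 over all genes. Values are log2 CPM, where CPM is the read count scaled to a fixed library size after upper-quartile scaling, and a log2 fold change is the mean of the IMC-treated mice minus the mean of the controls. The libraries held 22320022 to 25155366 reads on the listed genes, and among the 9 genes the lowest read number in any mouse was 734, for Gk. The tissue label was checked with adipocyte markers. All 7 of them were listed and abundant, with a summed level of 9553 to 13612 CPM in controls and 18782 to 22841 CPM in IMC-treated mice, while 4 epididymal markers were not listed.

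**Figure D1:**
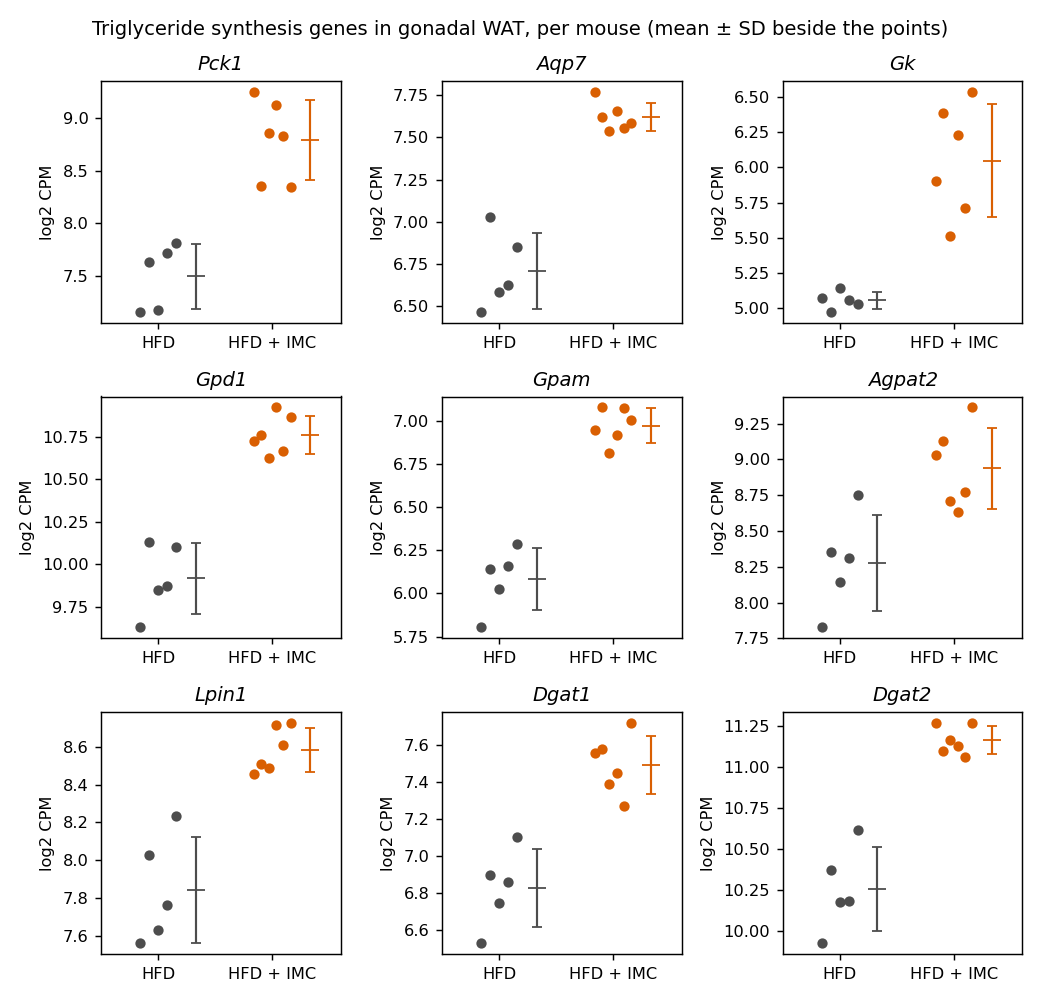
Log2 CPM (y axis, own range in each panel) of the 9 triglyceride synthesis genes in each of 5 HFD and 6 HFD + IMC mice, with the group mean ± SD beside the points. The groups do not overlap in 8 panels, they overlap for Agpat2, and the Gk panel shows 5 control mice close together and 6 spread IMC-treated mice.

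Pck1 encodes the cytosolic phosphoenolpyruvate carboxykinase, the rate-limiting enzyme of glyceroneogenesis in fat. The gene lies at chr2:173153073-173159274 on the plus strand of GRCm38.p6. In the 5 control mice its level was 7.16, 7.63, 7.18, 7.71 and 7.81 log2 CPM. IMC-treated mice ranged from 8.35 to 9.25, with a median of 8.85. Every IMC-treated mouse lay above every control, and IMC-treated mice 2 and 6 were the lowest of their group. The means were 7.50 ± 0.31 (SD, n = 5) and 8.79 ± 0.38 (SD, n = 6), a log2 fold change of 1.30 (SE 0.18, limma adjusted p = 0.000152).

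Glycerol itself is handled by the products of 2 of the genes. Aqp7 encodes an aquaglyceroporin, the channel by which glycerol crosses the adipocyte membrane, and Gk encodes glycerol kinase, which turns glycerol into glycerol 3-phosphate. Aqp7 was at 6.47, 7.03, 6.59, 6.62 and 6.85 log2 CPM in the controls. In IMC-treated mice it ranged from 7.54 to 7.77 with a median of 7.60. The groups were well apart, and the IMC-treated mice were closer together than the controls, with 7.62 ± 0.08 (SD, n = 6) against 6.71 ± 0.22 (SD, n = 5). The log2 fold change of Aqp7 was 0.91 (SE 0.09, limma adjusted p = 3.22e-05).

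Gk showed the opposite pattern of spread. Control values were 5.07, 4.98, 5.14, 5.06 and 5.03 log2 CPM, and IMC-treated mice ranged from 5.51 to 6.54 with a median of 6.07. The controls were almost level and the IMC-treated mice differed widely, but the lowest of them still exceeded all controls. The SD was 0.06 in the controls (mean 5.06, n = 5), close to the 0.05 expected there from read counting alone, and 0.40 in the IMC group (mean 6.05, n = 6), 6.59 times as large. The log2 fold change was 0.99 (SE 0.15, limma adjusted p = 0.000357). That fit takes a common variance for both groups, which these SDs do not bear out. An exact two-sided permutation test, which runs through every way to split the mice, gave p = 0.00433 for Gk, p = 0.0108 for Agpat2 and p = 0.00216, the smallest it can give, for the other 7 genes. Gk lies at chrX:85701937-85776819 on the minus strand and shares 84 exonic bases with Gm14764 on the opposite strand. The libraries were directional, but the strand setting of the read count is not given in the sources used here.

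The mice with the highest Gk were not those with the highest Pck1. IMC-treated mice 6 and 2 had the highest Gk of all mice, at 6.54 and 6.39 log2 CPM, and the lowest Pck1 of their group, both at 8.35 log2 CPM. IMC-treated mouse 1 had the highest Pck1, at 9.25 log2 CPM, with Gk at 5.90 log2 CPM. The order was not inverse throughout. IMC-treated mouse 4 was high for both genes, at 9.13 log2 CPM for Pck1 and 6.23 for Gk. IMC-treated mouse 3 had the lowest Gk of its group, at 5.51 log2 CPM, with Pck1 near the group median at 8.86. Within a mouse, log2 CPM of Pck1 minus that of Gk therefore ranged from 1.81 to 3.35 in the IMC group and from 2.03 to 2.78 in controls. The group means of this difference were 0.31 apart (SE 0.32), which did not pass the test (exact permutation p = 0.385, 0.539 after Benjamini-Hochberg adjustment over 7 gene pairs). Like the genes, the 7 pairs were chosen with earlier results of these data known.

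**Figure D2:**
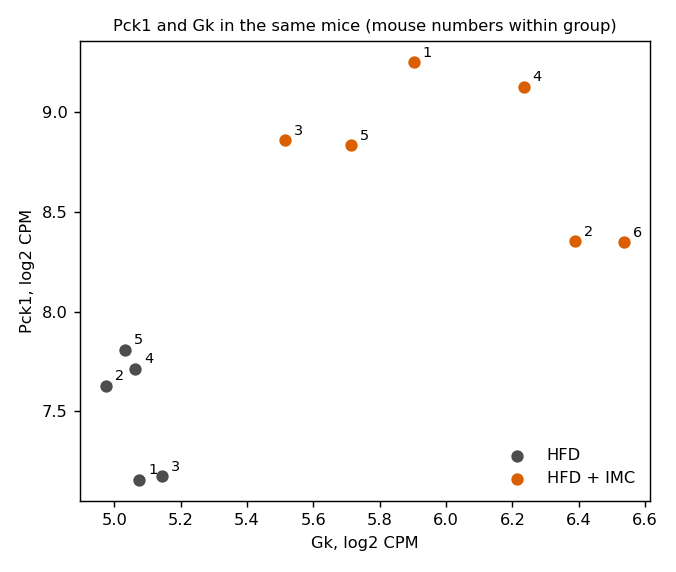
Pck1 (y axis, log2 CPM) against Gk (x axis, log2 CPM) in each mouse, numbered within its group. The 5 controls lie at 4.98 to 5.14 for Gk, and IMC-treated mice 2 and 6 lie at the right with the lowest Pck1 of the IMC group.

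The stretches upstream of Pck1 and Gk are shown because both genes supply glycerol 3-phosphate, were higher in every IMC-treated mouse, and had their extremes in different mice. Each is the 250 bases before the RefSeq start site (GRCm38.p6), written 5′ to 3′ on the strand of the gene, from chr2:173152823-173153072 on the plus strand for Pck1 and chrX:85776820-85777069 on the minus strand for Gk. Capitals mark letters that match 1 of 9 motifs searched on both strands, among them the TATA box (TATAAA), the cyclic AMP response element (TGACGTCA and its variant TTACGTCA), the nuclear receptor site (AGGTCA), the E-box (CACGTG) and the GC box (GGGCGG). The others were the DR1 element, which contains AGGTCA, the C/EBP element (TTGCNNAA) and the CCAAT box, and none of them matched in these windows.
Pck1: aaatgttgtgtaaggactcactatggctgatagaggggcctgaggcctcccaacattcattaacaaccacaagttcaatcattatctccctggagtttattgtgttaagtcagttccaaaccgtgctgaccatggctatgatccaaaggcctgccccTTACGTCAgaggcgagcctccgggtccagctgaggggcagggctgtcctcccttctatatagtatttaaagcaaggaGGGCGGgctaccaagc
Gk: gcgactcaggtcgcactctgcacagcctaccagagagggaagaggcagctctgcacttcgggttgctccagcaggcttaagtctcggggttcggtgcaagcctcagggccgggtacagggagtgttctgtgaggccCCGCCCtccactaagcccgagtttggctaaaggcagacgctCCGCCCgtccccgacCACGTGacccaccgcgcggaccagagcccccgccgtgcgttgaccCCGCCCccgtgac
The Pck1 window held TTACGTCA from position -93 to -86 counted from the start, and GGGCGG from -16 to -11. TTACGTCA was present in 0.447% of 32851 promoter windows of the same length, and GGGCGG in 32.7%. The Gk window held CACGTG from position -58 to -53, which 6.02% of all windows hold, and 3 matches to the reverse complement of GGGCGG. Neither window held the exact letters TATAAA, found in 12.4% of windows, or AGGTCA, found in 14% of windows. Other spellings of these motifs and bases further upstream were not searched, so an element of either kind may have been missed. A letter match describes the window and does not show that a factor binds it. Windows were found for 6 of the 9 genes, and Gpd1, Dgat1 and Dgat2 were not among them.

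Gpd1 encodes the cytosolic glycerol 3-phosphate dehydrogenase, which makes glycerol 3-phosphate from dihydroxyacetone phosphate, the shared end of the glucose and pyruvate routes. Its level was 9.63, 10.13, 9.85, 9.87 and 10.10 log2 CPM in controls and 10.63 to 10.92 with a median of 10.74 in IMC-treated mice. The groups were separated by more than either SD (9.92 ± 0.21, n = 5, and 10.76 ± 0.11, n = 6). The log2 fold change was 0.84 (SE 0.09, limma adjusted p = 4.52e-05). Gpd1 lies at chr15:99717587-99725014 on the plus strand, where 384 exonic bases are shared with Gm16537 on the opposite strand. Relative to Gpd1, Pck1 was higher in IMC-treated mice by 0.45 (SE 0.19), which missed the threshold (exact permutation p = 0.0519, adjusted 0.121). Without IMC-treated mouse 6 this difference was 0.56 and passed (exact permutation, adjusted p = 0.0417). It did not pass when any other single mouse was left out.

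The 2 acylations that follow are catalysed by glycerol 3-phosphate acyltransferase and by acylglycerol phosphate acyltransferase. Gpam encodes the mitochondrial form of the first enzyme. It was at 5.80, 6.14, 6.02, 6.16 and 6.29 log2 CPM in controls, and between 6.81 and 7.08 with a median of 6.98 in IMC-treated mice. The separation of 0.53 between the highest control and the lowest IMC-treated mouse was larger than the spread of either group, and the log2 fold change was 0.89 (SE 0.08, limma adjusted p = 2.67e-05).

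Agpat2 encodes the isoform of the second enzyme whose loss causes generalised lipodystrophy. Control values were 7.83, 8.35, 8.14, 8.31 and 8.75 log2 CPM, and the IMC-treated mice had a low of 8.63, a median of 8.90 and a high of 9.36. Control mouse 5 exceeded 2 of the 6 IMC-treated mice, and the other 4 were above all controls. The means of 8.28 ± 0.34 (SD, n = 5) and 8.94 ± 0.28 (SD, n = 6) gave a log2 fold change of 0.66 (SE 0.16, limma adjusted p = 0.00505). Agpat2, on the minus strand at chr2:26593057-26604417, shares 64 exonic bases with Egfl7 on the opposite strand. The within-mouse difference between Agpat2 and Gpam was 0.23 lower on the log2 scale in IMC-treated mice. It was 1.96 ± 0.25 (n = 6) against 2.19 ± 0.17 (n = 5), and the change did not pass (exact permutation p = 0.117, adjusted 0.205). Without IMC-treated mouse 6 the change was -0.31 and passed (exact permutation, adjusted p = 0.0417). Leaving out any other single mouse did not make it pass.

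Lpin1 encodes lipin 1, the main phosphatidic acid phosphatase of adipose tissue, which also acts as a coactivator in the nucleus. The controls were at 7.56, 8.03, 7.63, 7.76 and 8.23 log2 CPM. IMC-treated mice were at 8.46 to 8.73 with a median of 8.56, all above the controls and closer together than they were. The means were 7.84 ± 0.28 (SD, n = 5) and 8.59 ± 0.12 (SD, n = 6), a log2 fold change of 0.74 (SE 0.11, limma adjusted p = 0.000232). The difference between Lpin1 and Agpat2 within a mouse changed by 0.08 (SE 0.13, exact permutation p = 0.597, adjusted 0.697).

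The last acylation is carried out by 2 unrelated enzymes of the endoplasmic reticulum, encoded by Dgat1 and Dgat2. Dgat1 was at 6.53, 6.90, 6.75, 6.86 and 7.10 log2 CPM in controls and at 7.27 to 7.72 with a median of 7.50 in IMC-treated mice. Dgat2 was at 9.93, 10.37, 10.18, 10.18 and 10.62 log2 CPM in controls and at 11.06 to 11.27 with a median of 11.15 in IMC-treated mice. Neither gene overlapped between the groups, and the IMC-treated mice were closer together than the controls for both. The log2 fold change was 0.66 (SE 0.10, adjusted p = 0.000214) for Dgat1 and 0.91 (SE 0.11, adjusted p = 5.85e-05) for Dgat2, both by limma with Benjamini-Hochberg adjustment. The 2 changes differed: log2 CPM of Dgat2 minus that of Dgat1 was 3.43 ± 0.08 (SD, n = 5) in controls and 3.67 ± 0.11 (SD, n = 6) in the IMC group, a difference of 0.24 (SE 0.06, exact permutation p = 0.00866, adjusted 0.0303). The highest control and the lowest IMC-treated mouse both rounded to 3.52, with no overlap.

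**Figure D3:**
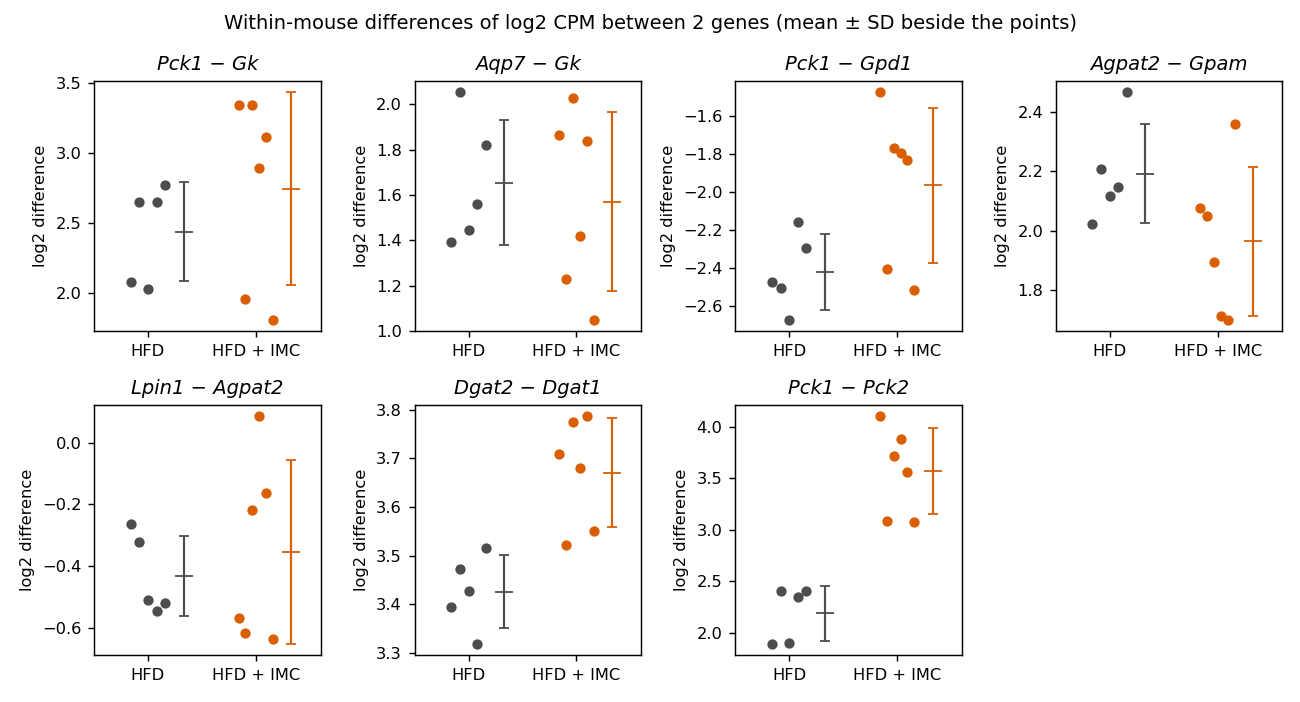
Difference in log2 CPM between 2 genes within each mouse (y axis, own range in each panel) for 7 pairs, in 5 HFD and 6 HFD + IMC mice, with mean ± SD beside the points. The groups separate without overlap for Dgat2 minus Dgat1 and for Pck1 minus Pck2, and overlap in the other 5 panels.

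Control mouse 1 had the lowest level of its group for 8 of the 9 genes, Gk being the exception, while control mouse 5 had the highest level for 6. In the IMC group, mouse 6 was highest for 5 genes and mouse 3 was lowest for 4. The mean log2 CPM of 5 adipocyte markers, used below as a reference, had the same extremes among the controls. This mean was 9.93 in control mouse 1 and 10.53 in control mouse 5. In the IMC group it was highest in mouse 6 (11.26) and lowest in mouse 5 (11.01). The 9 genes together made up 0.259 to 0.399% of scaled reads in the controls and 0.557 to 0.636% in IMC-treated mice. Dgat2 and Gpd1 contributed 66.3 to 69.1% of that sum in the controls and 66.7 to 68.9% in IMC-treated mice, ranges that overlap. The SD was smaller in the IMC group for 7 of the 9 genes, with Pck1 and Gk as the exceptions. The mean of the 5 adipocyte markers also had the smaller SD there, 0.11 against 0.27 in controls. The share of all genes with a smaller SD in the IMC group was not counted, so this spread is not particular to the 9 genes.

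Levels were compared between genes as log2 CPM per kilobase of merged exons. In controls the mean level ran from Dgat2 (8.63) through Gpd1 (8.35), Agpat2 (7.18), Pck1 (5.72), Dgat1 (5.22), Aqp7 (5.21), Lpin1 (4.57) and Gpam (3.35) to Gk (2.10). Dgat1 and Aqp7 were 0.0036 log2 apart, within their SD, and all other neighbours were further apart than the larger of their SDs. In IMC-treated mice the order was the same except that Aqp7 (6.12) stood above Dgat1 (5.88). This exchange depended on the gene length used: per kilobase of the longest coding transcript, an alternative chosen after the values were seen, Dgat1 was above Aqp7 in both groups. With those lengths Pck1 and Dgat1, and Aqp7 and Lpin1, differed by less than their SD in the controls.

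The other genes of the pathway were described from lists written by enzyme step. Of 68 genes, 60 were listed, and 25 were called higher, 10 were called lower and 25 did not pass (limma with Benjamini-Hochberg adjustment), beside 20% of all genes higher and 21% lower. Their median log2 fold change was 0.10. The groups did not overlap for 17 of the 60 in the upward direction and for 8 in the downward direction, against 12.5% and 10.5% of all genes.

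Among 10 listed genes that supply glycerol 3-phosphate, 5 were higher and 1 was lower. Pcx, the pyruvate carboxylase that provides oxaloacetate for glyceroneogenesis, was at 8.99 to 9.55 log2 CPM in the controls and 9.91 to 10.19 in the IMC group, a rise of 0.71 (SE 0.10) on the log2 scale. Tpi1, which interconverts the triose phosphates, rose by 0.38 (SE 0.05), and Got1, the cytosolic aspartate aminotransferase, fell by 0.33 on the log2 scale (SE 0.06). The malate dehydrogenases Mdh1 and Mdh2 and the aldolase Aldoa were the remaining genes called higher. Pck2, the mitochondrial isoform of Pck1, did not pass, with a log2 fold change of -0.09 (limma adjusted p = 0.183, 95% interval -0.20 to 0.02). Log2 CPM of Pck1 minus that of Pck2 was 2.19 ± 0.27 (SD, n = 5) in the controls and 3.57 ± 0.42 (SD, n = 6) in the IMC group, a difference of 1.39 (SE 0.21, exact permutation p = 0.00216, adjusted 0.0152). Gpd1l, Gpd2 and Got2 did not pass either, and the other glycerol channel genes Aqp3, Aqp9 and Aqp11 were not listed.

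The acyltransferase isoforms were divided, with 3 of 8 listed genes higher, 3 lower and 2 not passing. Gpat3, listed as Agpat9, encodes a glycerol 3-phosphate acyltransferase of the endoplasmic reticulum and was at 4.81, 5.07, 4.90, 5.19 and 5.50 log2 CPM in controls. In IMC-treated mice it was at 5.94 to 6.44, all above the controls, and its log2 fold change was 1.04 (SE 0.12, limma adjusted p = 5.34e-05). Lclat1, a lysophospholipid acyltransferase best known for remodelling cardiolipin, rose by 0.43 (SE 0.06). Agpat4 went the other way from Agpat2, with 4.98 ± 0.16 (SD, n = 5) in controls and 4.47 ± 0.11 log2 CPM (SD, n = 6) in IMC-treated mice, and changed by -0.50 on the log2 scale (SE 0.08) without overlap. Agpat3 was also higher and Agpat5 and Tmem68 were also lower, while Agpat1 and Gpat4 did not pass.

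Lpin1 was the one lipin gene called. Of the 5 other phosphatases, Plpp3 (listed as Ppap2b) rose by 0.46 (SE 0.05) and Plpp1 (listed as Ppap2a) by 0.29 (SE 0.06), both encoding membrane lipid phosphate phosphatases. Lpin3 had a log2 fold change of 0.21 (SE 0.14, limma adjusted p = 0.255), and Lpin2 and Plpp2 did not pass. Whether Lpin1 differed in its change from Lpin2 and Lpin3 was not tested.

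Among the monoacylglycerol acyltransferases and storage proteins, 4 of 5 listed genes were higher. Fitm2, which encodes a protein of the endoplasmic reticulum needed for lipid droplet formation, was at 5.19 to 5.58 log2 CPM in the controls and 6.12 to 6.37 in the IMC group, a rise of 0.85 (SE 0.07, limma adjusted p = 2.30e-05). Bscl2, which encodes seipin, rose by 0.60 (SE 0.09), and the low-abundance Mogat1 and Mogat2, which make diacylglycerol from monoacylglycerol, rose by 1.03 (SE 0.30) and 0.66 (SE 0.15). Soat1, which esterifies cholesterol in place of diacylglycerol, fell by 0.50 on the log2 scale (SE 0.11).

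**Figure D4:**
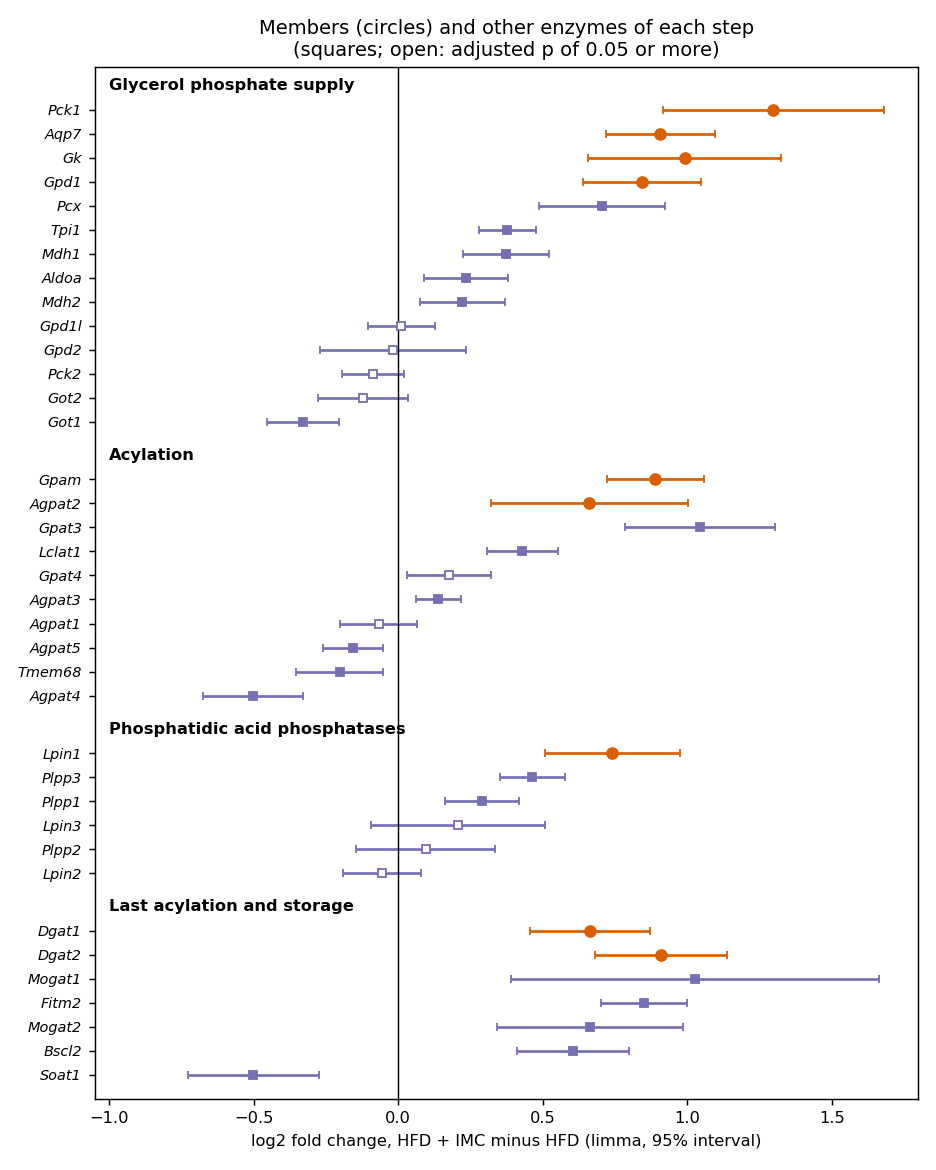
Log2 fold change, HFD + IMC minus HFD, with its 95% interval (x axis, limma) for the 9 genes (circles) and the other listed enzymes of each step (squares, open where the adjusted p was 0.05 or more). All 9 circles lie to the right of 0, from 0.66 to 1.30, while the squares lie on both sides.

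Of 12 listed transcription factors and coactivators known to act on adipocyte lipid genes, 7 were higher and 1, Creb1, was lower. Srebf1, which encodes the lipogenic factor SREBP-1, rose by 0.79 (SE 0.10), Pparg, the master regulator of adipocytes, by 0.70 (SE 0.11), and its partner Rxra by 0.35 (SE 0.06). Mlxipl, encoding the carbohydrate response factor ChREBP, rose by 0.62 (SE 0.13), and none of these 4 overlapped between the groups. Ppara rose by 0.99 (SE 0.19) from a low level of 2.47 ± 0.32 log2 CPM (SD, n = 5). Klf15 had a log2 fold change of 0.52 (SE 0.16, limma adjusted p = 0.0228), and it no longer passed when control mouse 1, 3 or 4 was left out (adjusted p = 0.0575, 0.0638 and 0.0560 by limma). Cebpa was also called higher, while Cebpb, Nr3c1, Nr4a1 and Ppargc1b did not pass and Ppargc1a was not listed.

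For 8 of the 9 genes, the 2 listed genes with the most similar profile over the 11 mice were found from the root mean square difference of log2 CPM after centring each gene on its own mean. This measure is largely set by the difference between the groups and describes these mice. The closest profiles among these were those of Slc25a10 (0.05) and Nnmt (0.06) for Dgat1 and Tusc5 (0.05) and Cnnm2 (0.05) for Dgat2. Gpd1 was nearest to the adenylyl cyclase gene Adcy5 (0.06) and the lipid droplet gene Cidec (0.07), and Gpam to Fitm2 (0.08) and Lpgat1 (0.09). Lpin1 was nearest to Adcy5 (0.09) and Optn (0.09), and Agpat2 to Tlcd1 (0.10) and Mterf2 (0.10). Pck1 and Gk had no profile as near, with 0.21 for Hist1h1e and 0.24 for Sfrp5 in Pck1 and 0.17 for Mark1 and 0.20 for Angptl1 in Gk. None of these nearest genes was another of the 9.

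Markers of cell types moved with the groups. All 7 adipocyte markers were higher in IMC-treated mice. Of 10 macrophage markers, all listed, 8 were lower, with a summed level of 7937 to 10529 CPM in controls and 4578 to 7119 CPM in IMC-treated mice. All 4 mast cell markers were lower (331 to 745 against 111 to 209 CPM), as were 3 of 5 fibroblast and progenitor markers (3761 to 4491 against 2821 to 3456 CPM). The 5 T cell markers were not listed. In bulk tissue a larger share of adipocytes and more RNA of a gene per adipocyte cannot be told apart, and the part of the macrophage, mast cell and fibroblast markers in the results was not tested.

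The 9 genes were therefore also expressed relative to 5 of the adipocyte markers. These themselves rose by unequal amounts on the log2 scale, from 0.71 for Fabp4 to 1.18 for Adipoq. Values on this scale therefore depend on the reference genes chosen, and no other set was tried. The markers Lep and Pnpla2, which rose by 1.04 and 0.64, were not part of the reference. The mean log2 CPM of Adipoq, Plin1, Cidec, Lipe and Fabp4 was 10.22 ± 0.27 (SD, n = 5) in controls and 11.12 ± 0.11 (SD, n = 6) in IMC-treated mice, 0.90 higher (exact permutation p = 0.00216). After subtracting this mean in each mouse, the median log2 fold change of all genes was -0.93, with 0.297% of genes called higher and 94.1% called lower. None of the 9 genes was called lower and 1, Pck1, was called higher. Pck1 had a log2 fold change of 0.40 on this scale (SE 0.16, 95% interval 0.06 to 0.73, limma adjusted p = 0.0224). With 94.1% of genes called lower, the adjustment across genes hardly raised this p. The groups overlapped for Pck1, and the exact permutation test did not pass (p = 0.0844). IMC-treated mice 2 and 6, at -2.78 and -2.91, lay within or below the control range of -2.85 to -2.42.

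On the adipocyte scale the changes of Aqp7 (0.01), Gk (0.09), Gpd1 (-0.06), Gpam (-0.01) and Dgat2 (0.01) were each smaller than their SE, and their 95% intervals reached from -0.32 at the lowest to 0.43 at the highest. Lpin1 was at -0.16 (95% interval -0.41 to 0.10), Agpat2 at -0.24 (-0.51 to 0.03) and Dgat1 at -0.24 (-0.48 to 0.01). For Dgat1 the limma test gave an adjusted p of 0.0644 and the exact permutation test p = 0.00866, with -3.39 ± 0.12 in controls (SD, n = 5) and -3.63 ± 0.08 in the IMC group (SD, n = 6) relative to the adipocyte mean. Of the 60 other pathway genes, 0 were called higher and 50 were called lower on this scale, where most genes of all kinds were called lower.

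**Figure D5:**
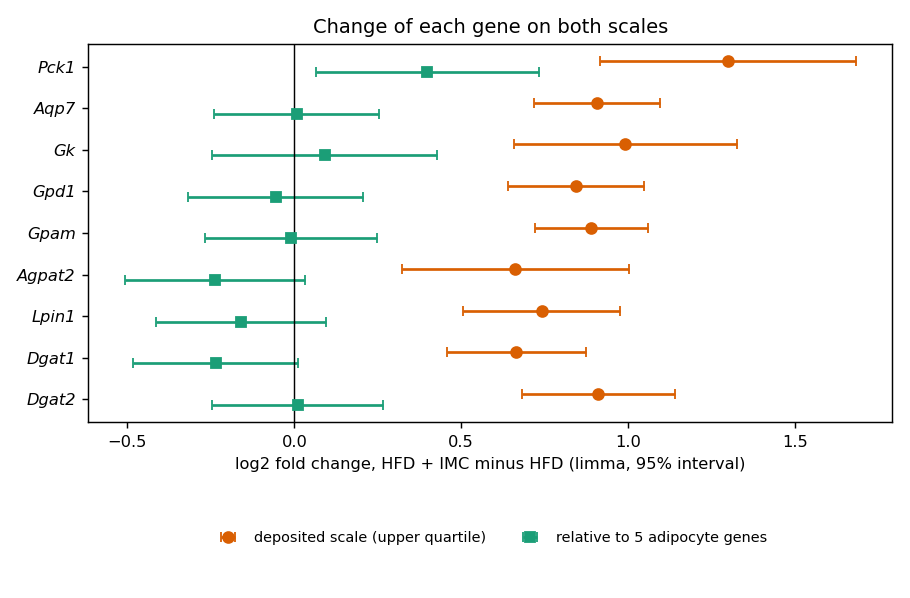
Log2 fold change, HFD + IMC minus HFD, with its 95% interval (x axis, limma) for each of the 9 genes on the deposited upper-quartile scale (circles) and relative to the mean of 5 adipocyte genes (squares). On the deposited scale all intervals lie above 0, and relative to adipocyte genes the interval of Pck1 (0.06 to 0.73) does and the other 8 include 0.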

How the data were processed

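Each mouse gave 1 directional mRNA library. The authors used Trim Galore for trimming and STAR for alignment to mm10 (UCSC annotation), counted reads per gene, removed low counts and scaled libraries by the upper quartile with edgeR. They deposited log2 CPM per mouse for 12787 genes, used here, and their own log2 fold change, mean log2 CPM, likelihood-ratio score, p-value and FDR, which were not used.

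The groups were compared by limma 3.58.1 in R 4.3.3 (lmFit, eBayes with trend), on group alone, with Benjamini-Hochberg adjustment of p across 12787 genes at a threshold of 0.05. No filter was added. Pairs of genes and single genes were put to an exact two-sided permutation test over every split of the mice, which gives no p below 0.00216. For single genes the p-values of this test were not adjusted. The study reports group housing with more than 1 cage per condition, but the labels do not give the cage of each mouse. Cage could not be fitted, so mice were treated as independent, which cage mates may not be. The p-values measure only the spread between these mice. Read numbers were recovered from the steps of the deposited CPM (100% of values whole within 0.05 reads) and used for depth and alternatives, and counting error covers reads only. The steps were tested on simulated data. Gene names and positions came from RefSeq GRCm38.p6, the build of mm10, and exon lengths from GENCODE. In each pathway list, values were given for the 3 genes with the smallest p and for genes called with an absolute log2 fold change over 0.5, and Pck2 was named for its pair with Pck1. The members, lists, pairs and tests were chosen with earlier results of these data known. Alternatives were limma without trend, limma voom, other scalings, another added constant, a filter, the adipocyte scale and leaving out each mouse. The genes with profiles nearest to Aqp7 are not reported here. Python 3.11.15 was used for tables and figures.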

Additional observations from a re-analysis of the deposited data

How the results depend on the processing

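Across 17 of the 18 alternative settings, all but the adipocyte scale, the 9 genes kept their direction and passed the threshold, with a highest adjusted p of 0.0152 for Agpat2 (limma). Their log2 fold changes ranged from 1.21 to 1.39 for Pck1 and from 0.55 to 0.78 for Agpat2, the widest range relative to its value. Leaving out each mouse left 9 genes called higher and 0 called lower each time, and 23 to 26 pathway genes higher and 9 to 12 lower.

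Relative to adipocyte genes, 1 of the 9 genes was called higher (9 on the deposited scale), and 0 pathway genes were called higher (25) and 50 lower (10). The median of all genes moved to -0.93 by the construction of that scale, which lowers every log2 fold change by 0.90. Signs reversed there for Gpd1 (-0.0557), Gpam (-0.0104), Agpat2 (-0.24), Lpin1 (-0.16) and Dgat1 (-0.24), and, among the pathway genes given with values, for Lclat1 (-0.47), Tpi1 (-0.52), Pcx (-0.19), Fitm2 (-0.0503), Bscl2 (-0.30), Mogat2 (-0.24), Plpp3 (-0.44), Plpp1 (-0.61), Lpin3 (-0.69), Chpt1 (-0.12), Cds1 (-0.27), Srebf1 (-0.11), Pparg (-0.20), Rxra (-0.55), Mlxipl (-0.28) and Klf15 (-0.38).

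Without any 1 mouse, the pair differences ranged from 0.22 to 0.27 for Dgat2 minus Dgat1 and from 1.28 to 1.48 for Pck1 minus Pck2, both past the threshold each time. Pck1 minus Gpd1 ranged from 0.36 to 0.56 and Agpat2 minus Gpam from -0.31 to -0.16, and both passed only without IMC-treated mouse 6, at 0.56 and -0.31 (exact permutation, adjusted p = 0.0417 for each). Pck1 minus Gk ranged from 0.19 to 0.49, Aqp7 minus Gk from -0.18 to 0.02 and Lpin1 minus Agpat2 from -0.01 to 0.14, none passing. The causes were not tested. No paired analysis was possible because the library numbers in the labels run on from the controls to the IMC group and none is shared, and the mouse numbers used here only name the mice. Counting error was small beside the spread between mice for the 9 genes, except for Gk in the controls (0.05 against an SD of 0.06). In the IMC group the SD of Gk was 0.40 and its counting error 0.04.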

Other observations

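The branch that leads from phosphatidic acid and diacylglycerol to phospholipids had 20 listed genes, of which 4 were higher, 4 were lower and 12 did not pass (limma with Benjamini-Hochberg adjustment), shares near the 20% higher and 21% lower among all genes. Its median log2 fold change was -0.04. Chpt1, the choline phosphotransferase that makes phosphatidylcholine from diacylglycerol, was at 8.58 to 9.09 log2 CPM in the 5 controls and 9.47 to 9.76 in the 6 IMC-treated mice, higher by 0.78 on the log2 scale (SE 0.09, limma adjusted p = 6.07e-05). Cds1, which commits phosphatidic acid to the CDP-diacylglycerol route, rose by 0.63 (SE 0.19), with overlap between the groups. Its highest values were in IMC-treated mice 6 and 2 at 5.48 and 5.43 log2 CPM, the same mice that had the highest Gk. These mice were also the highest for other genes, among them Agpat2 (9.36 and 9.13 log2 CPM) and Ppara (3.87 in both). The diacylglycerol kinases Dgka and Dgkz, which return diacylglycerol to phosphatidic acid, fell by 0.43 (SE 0.08) and 0.32 (SE 0.06) on the log2 scale without overlap between the groups, while the kinase Dgkd was called higher and Dgke, Dgkh and Dgkq did not pass. Selenoi was the other gene called higher, and Cept1, which also makes phosphatidylcholine, and Cdipt were the others called lower.

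Both listed skeletal muscle markers of 6 were higher in IMC-treated mice, with a summed level of 12.2 to 17.4 CPM in the controls and 29.8 to 55.7 CPM in the IMC group. The 4 liver markers summed to 99.7 to 110.6 CPM and 99.4 to 135.4 CPM, and 2 of them were called higher. Endothelial markers overlapped between the groups, at 377 to 527 CPM and 432 to 607 CPM, with 1 of 5 called higher. Of 66 groups of per-mouse values tested with Dixon's criterion, which chance meets in about 1 of 20, none held a mouse standing apart.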
